A study of Mus musculus with 7 samples.

Results

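The 46 genes described here encode the protein folding, translocation and quality control machinery of the endoplasmic reticulum (ER), together with the sensors of its stress response. They were chosen by symbol from a fixed list, and all 46 were found among the 35013 gene symbols of the count table. By role, 13 are ER chaperones and co-chaperones, 4 are protein disulfide isomerases, 9 serve ER-associated degradation, 5 are sensors and regulators of the unfolded protein response, 9 belong to the translocon or its associated complex, 4 are subunits of the signal peptidase and 2 are retrieval receptors. All 46 passed the filter on low counts in each comparison.

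RNA was measured in sorted pancreatic β-cells from 2 Aldh1a3 KO_db/db mice, 2 db/db mice and 3 db/+ mice, with 1 poly-A library per mouse. Without a working leptin receptor db/db animals overeat, grow obese and turn diabetic, whereas db/+ mice carry 1 such allele and stay lean. KO_db/db mice carry the same Lepr db/db alleles and are labelled as knockouts of Aldh1a3, which encodes a retinaldehyde dehydrogenase. The study made this knockout with RIP-Creherr, a Cre driven by the rat insulin promoter, together with Aldh1a3 fl/fl and the reporter tdT fl/+ on Lepr db/db, and for the db/db and db/+ controls of its metabolic tests it describes the same Cre with Aldh1a3 fl/+ and tdT fl/+. The animals of the study were adult males and females. The labels of these libraries give no alleles for the controls, no gate for the sort and no age of their own. Mice were fasted before their islets were isolated, dispersed and sorted.

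As background, proteins bound for secretion enter the ER through the SEC61 channel, lose their signal peptide to the signal peptidase, and fold with the help of chaperones and disulfide isomerases. Proteins that fail to fold are recognised by lectins, passed back to the cytosol and degraded. Unfolded protein in the ER lumen activates the sensors IRE1, PERK and ATF6, which raise the transcription of chaperone and degradation genes, lower protein synthesis, or both. β-cells make proinsulin in large amounts and depend on this machinery.

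ATF6 and XBP1 are known to act through short DNA elements, so the promoters of the members were searched for 3 of them, as letters on both strands. The ER stress response element (ERSE) was searched as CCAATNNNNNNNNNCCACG, ERSE-II as ATTGGNCCACG and the unfolded protein response element (UPRE) as TGACGTGG, all of which share the letters CCACG on one strand or the other. RefSeq promoters of GRCm38.p6, from 250 bases before to 50 bases after the gene start, were at hand for 37 of the 46 members and for 27025 genes in all. ERSE was found in 9 of the 37 members (24.3%) and in 37 of all genes (0.137%). ERSE-II was found in 2 members (5.41%) and in 12 genes (0.0444%), and UPRE in 1 member (2.70%) and in 193 genes (0.714%). Together, 12 of the 37 members (32.4%) and 239 of all genes (0.884%) held at least 1 of the 3. A match is a run of letters and not a measured binding site, and the absence of one covers this window only.

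The sites of some of the members with an ERSE or ERSE-II are printed 5′ to 3′ on the strand of the motif. Letters that define the motif are in capitals and the spacer is in lower case. Those of Calr, Canx, Creld2, Derl3, Pdia6 and Dnajb11 are not printed. The printed members all had positive log2 fold changes in db/db against db/+, while Calr (-0.61) and Canx (-0.35) had negative ones. Hspa5, which encodes the chaperone BiP, had 1 ERSE 65 to 47 bases before its RefSeq start (chr2:34772025-34772043, plus strand). The GENCODE start of Hspa5, given with its levels, lies upstream of that site, so by GENCODE the site falls within the gene. Hsp90b1, which encodes the ER member of the Hsp90 family, had 2 of them, at chr10:86705638-86705656 on the minus strand and at chr10:86705533-86705551 on the plus strand. Syvn1, the ubiquitin ligase of ER-associated degradation, had 1 at chr19:6046532-6046550 (plus strand), and the J-domain co-chaperone Dnajc3 had 1 at chr14:118937827-118937845 (plus strand). Herpud1, a membrane protein of the same degradation pathway, had an ERSE-II at chr8:94386377-94386387 (plus strand).
Hspa5: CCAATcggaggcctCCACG
Hsp90b1, distal: CCAATcgcaaggagCCACG
Hsp90b1, proximal: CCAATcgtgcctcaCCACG
Syvn1: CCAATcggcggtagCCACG
Dnajc3: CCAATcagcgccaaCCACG
Herpud1: ATTGGgCCACG
The spacers differ in sequence among these members, while the outer letters are the same by the search itself.

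The 250 bases before the start are shown for 3 members, Hspa5 and Hsp90b1 because both hold an ERSE and only the latter passed the test below, and Kdelr3 because it was the member with the largest fold change and the one with a UPRE. Each runs 5′ to 3′ on the strand of the gene with the whole motif in capitals. They lie at chr2:34771840-34772089 (plus strand), chr10:86705445-86705694 (minus strand) and chr15:79516158-79516407 (plus strand), each ending at the base before the RefSeq start. The GENCODE starts of Hspa5 and Hsp90b1 lie inside these stretches, and both ERSE of Hsp90b1 lie upstream of its GENCODE start.
Hspa5: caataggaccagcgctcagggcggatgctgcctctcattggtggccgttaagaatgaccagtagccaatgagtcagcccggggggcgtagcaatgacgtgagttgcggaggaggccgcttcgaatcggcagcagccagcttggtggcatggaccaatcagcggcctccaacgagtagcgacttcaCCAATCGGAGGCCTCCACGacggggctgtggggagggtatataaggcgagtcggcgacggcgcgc
Hsp90b1: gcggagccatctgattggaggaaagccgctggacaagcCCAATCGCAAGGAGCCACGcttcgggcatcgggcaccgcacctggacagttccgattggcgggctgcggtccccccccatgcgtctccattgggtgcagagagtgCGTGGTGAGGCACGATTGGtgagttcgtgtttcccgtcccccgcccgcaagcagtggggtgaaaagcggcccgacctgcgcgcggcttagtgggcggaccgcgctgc
Kdelr3: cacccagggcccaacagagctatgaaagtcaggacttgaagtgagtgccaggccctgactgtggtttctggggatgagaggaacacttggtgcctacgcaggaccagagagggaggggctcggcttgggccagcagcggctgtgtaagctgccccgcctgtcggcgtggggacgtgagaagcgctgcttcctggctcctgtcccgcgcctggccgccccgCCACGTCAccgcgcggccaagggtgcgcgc
In Hsp90b1 the second ERSE reads on the opposite strand, and in Kdelr3 the UPRE does so as well.

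Total counts ran from 27496645 to 35852785 per library, and the detection floor of 3 counts lay between 0.0721 and 0.123 CPM (counts scaled to the library size, corrected by the TMM method of edgeR over all 7 libraries). Aldh1a3 was at 4.93 and 7.90 CPM in KO_db/db, at 99.3 and 195 CPM in db/db and between 0.0727 and 0.584 CPM in db/+. In KO_db/db it was lower than in db/db (log2 fold change -4.50, adjusted p = 0.0445) and higher than in db/+ (4.44, adjusted p = 0.00327). Insulin transcripts took 21.8% to 36.1% of the counts, and the β-cell markers Ins1, Ins2, Pdx1 and Nkx6-1 were present in every library. A list of 40 acinar genes made up 17.3% and 1.95% of all counts in KO_db/db mouse 1 and mouse 2 and at most 0.0559% in each other library, with none of its genes at 0 in the first and up to 19 at 0 in the others. The 46 members made up 1.05% and 1.34% of the counts of these libraries, and after TMM scaling they summed to 11783 and 11667 CPM, a ratio of 1.01, where the acinar sum differed by a ratio of 11.4. On the same scale 45 of the 46 members differed by less than 0.5 on the log2 scale, with a median difference of 0.02 between both KO_db/db libraries. The summed level of the members was 14731 and 11541 CPM in db/db and ran from 10488 to 13790 CPM in db/+, so the groups overlapped. Other islet cell types moved with the groups: 4 delta-cell genes summed to 170 and 87.9 CPM in db/db, 520 to 647 CPM in KO_db/db and 378 to 2333 CPM in db/+, and 6 alpha-cell genes to 2313 to 2712 CPM in db/db and 1302 to 2027 CPM in the other libraries. Glucagon itself (Gcg) did not share that order, at 608 and 351 CPM in db/db, 1017 and 620 CPM in KO_db/db and 1088, 1178 and 378 CPM in db/+. All 10 of these marker genes were above 0 in every library. A pair of pancreatic polypeptide cell genes summed to 903 and 678 CPM in KO_db/db, 614 and 349 CPM in db/db and 150 to 561 CPM in db/+, all above 0. Of other cells, 6 ductal genes, up to 2 of them at 0 in a library, summed to 280 and 346 CPM in KO_db/db, 293 and 434 CPM in db/db and 186 to 201 CPM in db/+. The 6 lymphocyte genes, up to 3 of them at 0, summed to 1.39 and 3.17 CPM in db/db and 19.9 to 39.7 CPM in the other libraries, and 7 macrophage genes to 21.4 and 33.9 CPM in KO_db/db and 32.7 to 75.1 CPM elsewhere. Endothelial genes, 6 in the list and up to 1 at 0, summed to 45.5 CPM in db/+ mouse 3 and 7.29 to 18.2 CPM elsewhere. That library alone held Y-linked transcripts, with Ddx3y at 35.0 CPM and Uty at 28.6 CPM, against at most 0.0814 and 0.205 CPM elsewhere. By these transcripts sex was not balanced between db/+ and the other groups. The part of other cell types, of the acinar RNA and of sex in the results below was not tested. In bulk RNA, fewer cells of a type and less RNA per cell cannot be told apart.

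**Figure D1:**
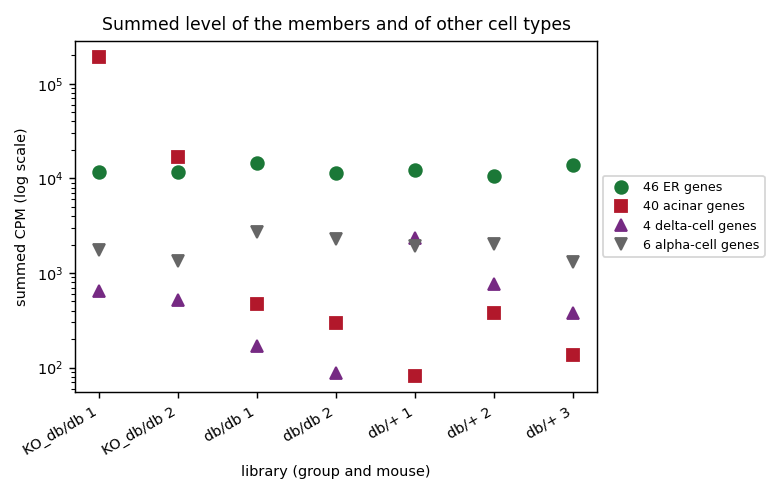
Summed CPM (log axis) of the 46 ER genes, 40 acinar, 4 delta-cell and 6 alpha-cell genes in each of the 7 libraries, 1 point per library and list. The ER genes stay between 10488 and 14731 CPM, while the acinar genes range from 81.1 CPM in a db/+ library to 193594 CPM in the first KO_db/db library.

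Per kilobase of exon, the most abundant members in lean db/+ β-cells were the disulfide isomerases P4hb (405 CPM per kb ± 49.6, SD, n = 3) and Pdia3 (385 ± 29.3), which did not differ beyond their spread, followed by the lectin chaperone Calr (283 ± 42.4) and by Hspa5 (231 ± 50.3). Among the regulators, Xbp1, the transcription factor activated by IRE1, stood at 71.5 CPM per kb, and the sensor genes were lower, with Ern1 (IRE1) at 16.5, Atf6 at 12.1 and Eif2ak3 (PERK) at 7.13. Kdelr3 was the lowest member at 2.73 CPM per kb, against 78.6 for its paralog Kdelr2.

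The first comparison asked which members differed in diabetic db/db β-cells from lean db/+ β-cells. Of the 46 members, 9 were higher and 4 were lower in db/db, at a Benjamini-Hochberg adjusted p under 0.05 over all genes tested in the quasi-likelihood test of edgeR. The higher members were 4 genes of ER-associated degradation (Syvn1, Sel1l, Edem2 and Os9), the chaperone Hsp90b1, the translocon genes Sec63 and Ssr4, the signal peptidase gene Sec11c and the retrieval receptor gene Kdelr3. The lower members were the co-chaperones Dnajb9 and Sdf2l1, the degradation gene Derl2 and the signal peptidase gene Spcs3. Among all 13406 genes tested, 19.9% were higher and 18% were lower, against 19.6% and 8.70% of the members, so the higher share lay at the background. The median log2 fold change was 0.035 over the members and 0.006 over all genes, and 27 of the 46 members had a positive sign. The member median ran from -0.095 without db/db mouse 1 to 0.219 without db/db mouse 2. Scaling by library totals instead of TMM moved the median of all genes by 0.49 and the calls over all genes from 5069 to 6772. The member counts moved to 25 higher and 0 lower, and all fold changes here are relative to the TMM scale. Without db/+ mouse 1 the member counts were 4 higher and 1 lower, without db/+ mouse 2 they were 5 and 4, and without db/+ mouse 3 they were 12 and 3. Calls over all genes moved as well, from 5069 of 13406 to 3331 of 13310, 3368 of 13225 and 4330 of 13199 in these fits. The member counts also moved without either db/db mouse, which leaves 1 library in that group. Of the 13 called members, 5 stayed called in the same direction whichever of the 5 libraries was left out: Sel1l, Edem2, Os9 and Kdelr3, which were higher, and Derl2, which was lower.

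**Figure D2:**
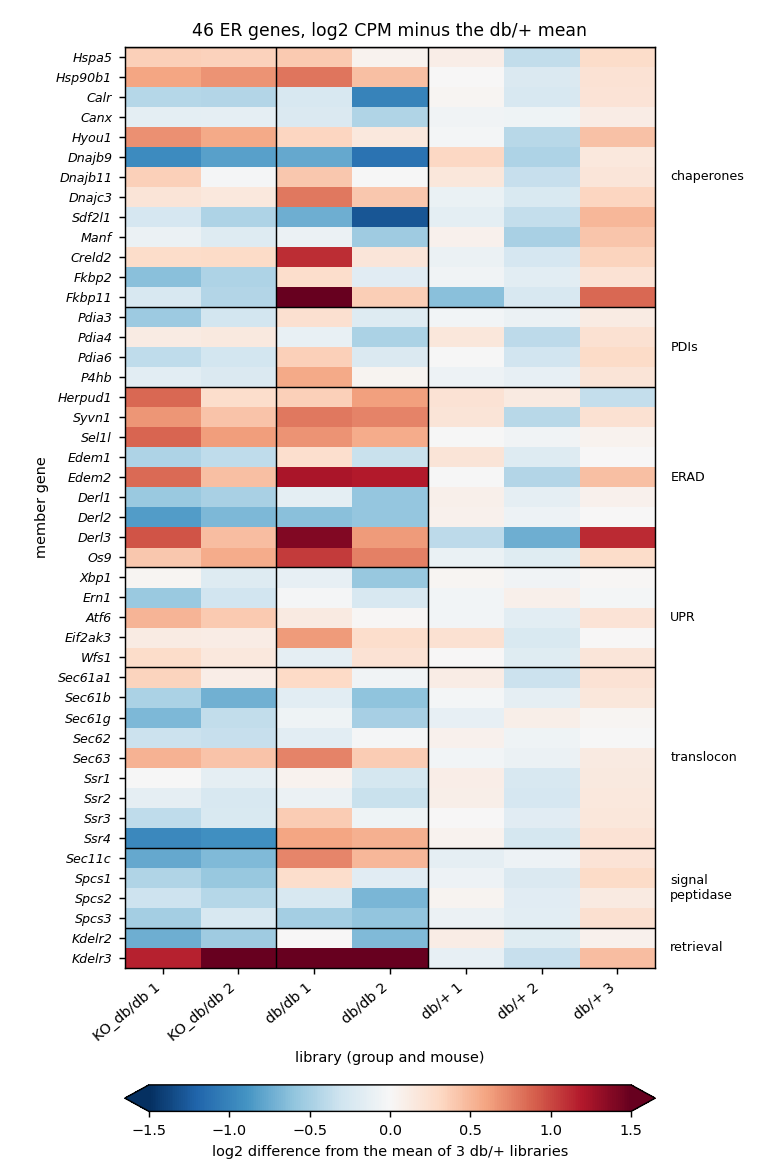
Heat map of the 46 members (rows, grouped by role) in the 7 libraries (columns), coloured by log2 CPM minus the mean of the 3 db/+ libraries; colours saturate at 1.5 on the log2 scale. Edem2, Os9, Sel1l and Kdelr3 are raised in both db/db libraries, Dnajb9, Sdf2l1 and Derl2 are lowered in both, and Ssr4 and Sec11c are raised in db/db and lowered in KO_db/db.

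Genes of ER-associated degradation gave the most calls of any role in this comparison, with 4 of 9 higher and 1 lower. These shares were 44.4% and 11.1%, against 19.9% and 18% of all genes. Among 14 other genes of ER-associated degradation, which are not members, 1 was higher and 1 was lower (7.14% each). The high share was not seen in these other genes of the process, and the members were chosen with earlier results of these data known. A share above the background was not particular to this role. Of 16 other genes of ER folding and oxidation, 31.2% were higher and 18.8% were lower. Sel1l, the adaptor that stabilises the SYVN1 ligase, was at 217 and 200 CPM in db/db and at 136, 131 and 141 CPM in db/+, which did not overlap. It lies on chromosome 12 of GRCm38 from 91806043 to 91849157 and was higher by 0.59 on the log2 scale (standard error, SE, 0.10, adjusted p = 0.00573). Syvn1 itself was at 98.6 and 95.0 CPM in db/db and at 65.0, 42.4 and 66.4 CPM in db/+, a log2 fold change of 0.71 (adjusted p = 0.0304). Edem2, Os9, Dnajb9, Sdf2l1, Sec63, Ssr4, Sec11c, Spcs3 and Kdelr3, described next, were picked by a rule that required no overlap between db/db and db/+. Their separation follows from that choice and adds nothing to the test.

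Edem2, a mannosidase-like protein that marks glycoproteins for degradation (chromosome 2, 155701677 to 155729475), was at 229 and 224 CPM in db/db and at 97.2, 72.1 and 134 CPM in db/+. Both db/db values exceeded every lean value, with a log2 fold change of 1.14 (SE 0.24, adjusted p = 0.0114). Os9, the lectin that reads those glycans (chromosome 10, 127095650 to 127121131), was at 493 and 403 CPM in db/db and at 223, 211 and 290 CPM in db/+, a log2 fold change of 0.87 (SE 0.17, adjusted p = 0.00985). Derl2, a rhomboid-like channel component, moved the other way with little spread, from 93.7, 85.6 and 90.6 CPM in db/+ to 58.3 and 59.9 CPM in db/db. Its log2 fold change was -0.63 (SE 0.10, adjusted p = 0.00433). The call of Syvn1 was lost without db/+ mouse 1, db/db mouse 1 or db/db mouse 2, with adjusted p up to 0.0854. Edem1, Derl1, Derl3 and Herpud1 were not called, with log2 fold changes of -0.05, -0.38, 0.78 and 0.45. Derl3 was at 6.40 to 23.2 CPM within db/+ alone, so its spread within a group was as wide as its difference between them.

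Chaperones did not move as a block. Hspa5, on chromosome 2 from 34771970 to 34777547, was at 1259 and 999.8 CPM in db/db and at 1028, 745 and 1162 CPM in db/+, so the groups overlapped, and its log2 fold change of 0.18 (SE 0.22, adjusted p = 0.552) did not pass the test. Hsp90b1, on chromosome 10 from 86690209 to 86705509, was at 1225 and 959 CPM in db/db and at 706, 602 and 815 CPM in db/+. Both db/db libraries lay above all lean ones, and the log2 fold change was 0.60 (SE 0.18, adjusted p = 0.0388). This call was lost without db/+ mouse 1, db/+ mouse 2 or db/db mouse 1, with adjusted p up to 0.156.

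Dnajb9, a J-domain partner of BiP and a known XBP1 target, was at 507, 297 and 455 CPM in db/+ and at 241 and 190 CPM in db/db, without overlap. The log2 fold change was -0.99 (SE 0.25, adjusted p = 0.0203). Sdf2l1, a further BiP cofactor, was at 60.5, 52.2 and 94.6 CPM in db/+ and at 40.2 and 27.6 CPM in db/db, and fell by 1.06 (SE 0.29, adjusted p = 0.0284). Both calls were lost without db/+ mouse 1 or db/db mouse 2, and that of Dnajb9 also without db/+ mouse 3, with adjusted p up to 0.128 for Sdf2l1 and 0.0943 for Dnajb9. The other 9 chaperones were not called and had log2 fold changes from -0.61 for Calr to 0.95 for Fkbp11. The 4 disulfide isomerases, P4hb, Pdia3, Pdia4 and Pdia6, were within 0.34 of 0 on the log2 scale, and 0 of them were called by edgeR, by DESeq2 or at an unadjusted p under 0.05.

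The sensors showed no call in this comparison. By edgeR 0 of the 5 sensors and regulators passed, as by DESeq2, and at an unadjusted p under 0.05 Eif2ak3 was higher (log2 fold change 0.42) and Xbp1 was lower (-0.35). Xbp1 was at 214 and 157 CPM in db/db and at 237, 224 and 236 CPM in db/+. Ern1 was at 133 and 114 CPM in db/db and at 131, 142 and 132 CPM in db/+, Atf6 at 122 and 112 against 107, 99.3 and 127 CPM, and Wfs1, the ER membrane protein mutated in Wolfram syndrome, at 136 and 174 against 150, 132 and 170 CPM. For Ern1, Atf6 and Wfs1 the db/db and db/+ libraries overlapped. Eif2ak3 was at 66.5 and 51.0 CPM in db/db and at 49.9, 36.2 and 42.8 CPM in db/+. Gene counts of this kind do not show splicing of Xbp1 or phosphorylation of a sensor.

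In the translocon, Sec61a1, the channel subunit, was at 331 and 259 CPM in db/db and at 290, 216 and 312 CPM in db/+, with a log2 fold change of 0.09 (adjusted p = 0.756). Sec63, the J-domain protein that couples BiP to the channel, was at 200 and 156 CPM in db/db and at 116, 112 and 131 CPM in db/+, higher by 0.54 (SE 0.14, adjusted p = 0.0241). Ssr4, a subunit of the translocon-associated protein (TRAP) complex and the only member on chromosome X (73787028 to 73790830), was at 441 and 425 CPM in db/db and at 304, 244 and 341 CPM in db/+, higher by 0.52 (SE 0.16, adjusted p = 0.0425). The other TRAP subunits stayed close to the lean level, with log2 fold changes of -0.14 for Ssr1, -0.24 for Ssr2 and 0.14 for Ssr3. The calls of Sec63 and Ssr4 were lost without db/+ mouse 1, db/+ mouse 2 or db/db mouse 1, and that of Ssr4 also without db/db mouse 2, with adjusted p up to 0.0965 and 0.110.

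The signal peptidase genes split. Sec11c, a catalytic subunit, was at 256 and 218 CPM in db/db and at 140, 146 and 177 CPM in db/+, higher by 0.59 (SE 0.14, adjusted p = 0.0190), while Spcs3, an accessory subunit, was at 275 and 260 CPM in db/db and at 370, 352 and 463 CPM in db/+ and fell by 0.59 (SE 0.15, adjusted p = 0.0244). Neither pair of groups overlapped, as the choice of these genes required. The Sec11c call was lost without db/+ mouse 1, db/+ mouse 2 or db/db mouse 1 and the Spcs3 call without db/+ mouse 1, db/db mouse 1 or db/db mouse 2, with adjusted p up to 0.0767 and 0.0826. Spcs1 and Spcs2 were not called.

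Kdelr3, a receptor that returns escaped ER residents from the Golgi (chromosome 15, 79516411 to 79527739), had the largest fold change of the 46 members. Its level was 47.3 and 18.9 CPM in db/db and 3.44, 2.95 and 5.16 CPM in db/+. Both db/db libraries lay well above the lean ones but differed from each other as well, and the log2 fold change was 3.07 (SE 0.41, adjusted p = 0.00241). It ranged from 2.27 to 3.58 when 1 library was left out, with adjusted p up to 0.0137. Kdelr2, at 144 and 90.8 CPM in db/db and 127 to 154 CPM in db/+, was not called. Kdelr3 shares 4 exon bases with Ddx17 on the opposite strand, Hsp90b1 shares 415 with 1810014B01Rik, Derl2 shares 231 with Mis12, Sec63 shares 173 with Gm26860, Syvn1 shares 91 with Mrpl49 and Spcs3 shares 75 with Asb5. Other members share such bases too: Sec61a1 549, Sec62 509, Eif2ak3 485, Manf 312, Spcs1 252, Ssr2 239, Pdia6 50, Pdia3 18 and Dnajb9 14. A strand setting for the counting is not given in the sources used here, so reads from all these stretches cannot be told apart.

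**Figure D3:**
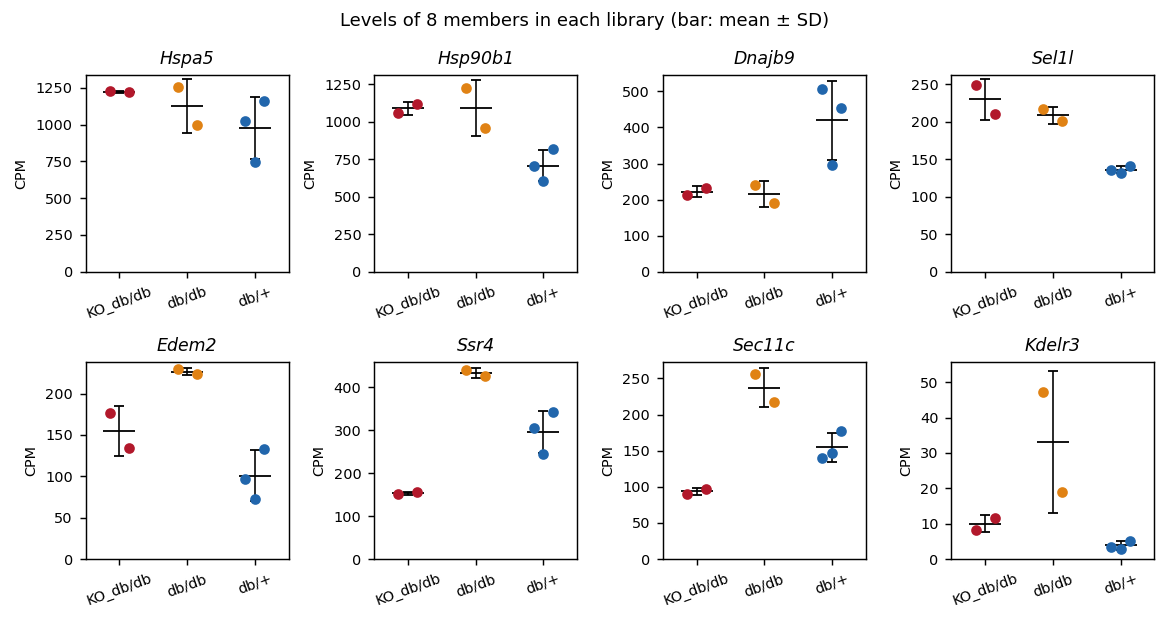
CPM of 8 members in each library, by group; points are libraries, horizontal bars are means and whiskers are SD (n = 2, 2 and 3). Hspa5 overlaps between db/db and db/+, Sel1l and Hsp90b1 are higher in both diabetic groups than in db/+, and Ssr4 and Sec11c separate all 3 groups, with KO_db/db lowest.

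Members with and without an ERSE are set side by side as a description. Of the 9 that hold one, Hsp90b1 and Syvn1 were higher (22.2%, against 19.9% of all genes) and none was lower, 7 had a positive log2 fold change, and the median was 0.56. Of the 28 members with a promoter sequence and no ERSE, 6 were higher (21.4%) and 3 were lower (10.7%), with a median of 0.02. Hspa5, whose ERSE is printed above, had a log2 fold change of 0.18, and Calr and Canx, which also hold one, had -0.61 and -0.35. The members with an ERSE-II, Herpud1 and Dnajb11, had 0.45 and 0.17, and neither was called. In KO_db/db against db/+ the median over the 9 was 0.27, with Hsp90b1 called, and that over the 28 was -0.32, and in KO_db/db against db/db these medians were -0.21 and -0.23.

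**Figure D4:**
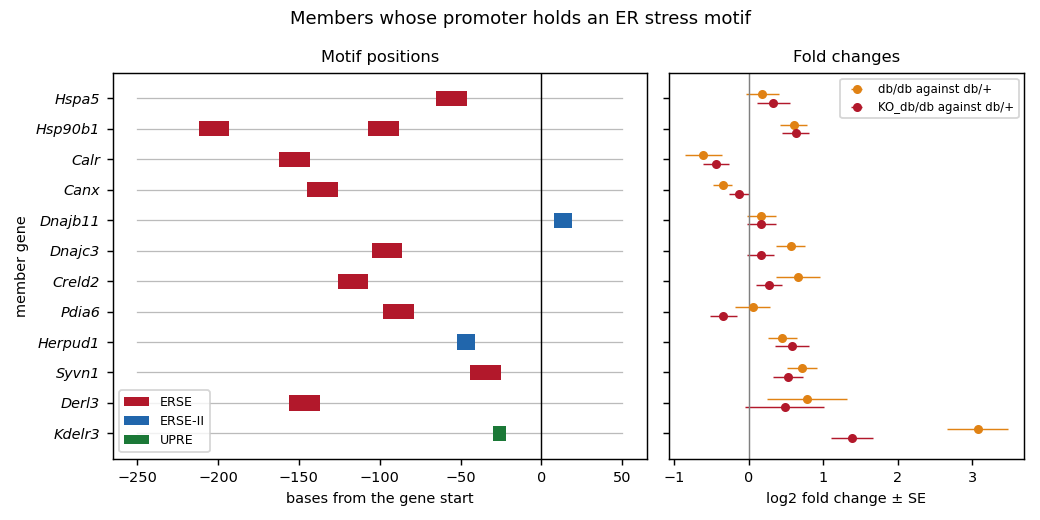
Left, positions of ERSE, ERSE-II and UPRE letters in the promoters of the 12 members that hold 1, in bases from the gene start; right, log2 fold changes with standard errors against db/+ for db/db and KO_db/db. Motif holders run from -0.61 for Calr to 3.07 for Kdelr3 in db/db.

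The second comparison set KO_db/db against the same 3 db/+ libraries, to see which members still differed from the lean state in diabetic mice labelled as Aldh1a3 knockouts. Here 5 members were higher (Hsp90b1, Sel1l, Atf6, Sec63 and Kdelr3) and 13 were lower (Dnajb9, Fkbp2, Edem1, Derl1, Derl2, Ern1, Sec61b, Sec61g, Sec62, Ssr4, Sec11c, Spcs1 and Kdelr2) in the same test of edgeR. Of all 13228 genes tested, 20.5% were higher and 17.9% were lower, against 10.9% and 28.3% of the members. The median log2 fold change was -0.18 over the members and -0.003 over all genes, and 19 of 46 were positive. Scaling by library totals moved the median of all genes by 0.22 and the calls over all genes from 5081 to 3621, and gave 9 members higher and 1 lower. The member counts moved without either KO_db/db mouse, which leaves 1 library in that group. They were 2 higher and 7 lower without db/+ mouse 1, where calls over all genes moved from 5081 of 13228 to 3434 of 13087. They were 2 and 10 without db/+ mouse 2 (3549 of 13091 genes called) and 10 and 10 without db/+ mouse 3 (4725 of 12993). That last mouse was the one with Y-linked transcripts (Ddx3y at 35.0 CPM, against at most 0.0814 CPM in the other libraries). Of the 18 called members, 4 stayed called whichever of the 5 libraries was left out: Sel1l, which was higher, and Derl2, Ssr4 and Sec11c, which were lower. Without KO_db/db mouse 1, the library with the most acinar RNA, the members called were Sel1l and Kdelr3, which were higher, and Derl2, Sec61b, Ssr4 and Sec11c, which were lower.

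Sel1l was at 249 and 210 CPM in KO_db/db, higher than db/+ by 0.76 on the log2 scale (SE 0.11, adjusted p = 0.00334), and Derl2 at 50.3 and 56.2 CPM, lower by 0.75 (SE 0.09, adjusted p = 0.00206). Hsp90b1 was at 1056 and 1121 CPM, with a log2 fold change of 0.63 (SE 0.18, adjusted p = 0.0308), and Dnajb9 at 212 and 232 CPM, with -0.91 (SE 0.23, adjusted p = 0.0225). None of these 4 genes overlapped with db/+ in either diabetic group, but both comparisons use the same lean libraries, so the likeness is not independent. The calls of Hsp90b1 and Dnajb9 were each kept in 1 of the 5 fits that left out a library: Hsp90b1 without db/+ mouse 3, with adjusted p up to 0.116 in the others, and Dnajb9 without db/+ mouse 2, with adjusted p up to 0.106 in the others. Hspa5, at 1228 and 1219 CPM, had a log2 fold change of 0.33 (adjusted p = 0.269).

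Other members stood apart in KO_db/db. Ssr4 was at 151 and 155 CPM, below all 3 lean libraries and both db/db libraries, and lower than db/+ by 0.95 (SE 0.16, adjusted p = 0.00556). Sec11c was at 90.4 and 97.2 CPM, lower than db/+ by 0.71 (SE 0.13, adjusted p = 0.00692). The channel subunits Sec61b and Sec61g, the translocation factor Sec62 and the signal peptidase subunit Spcs1 were lower by 0.59, 0.50, 0.33 and 0.52 on the log2 scale, and none of these 4 calls was kept in every fit without 1 library. Sec61b was lost without KO_db/db mouse 2, Sec61g without KO_db/db mouse 1 or any single db/+ mouse, Sec62 without either KO_db/db mouse, db/+ mouse 1 or db/+ mouse 2, and Spcs1 without either KO_db/db mouse or db/+ mouse 1, with adjusted p up to 0.185. Sec61a1, at 340 and 288 CPM, had a log2 fold change of 0.21 (adjusted p = 0.395). Kdelr3 was at 8.31 and 11.6 CPM, above every lean library and below both db/db libraries, and higher than db/+ by 1.38 (SE 0.28, adjusted p = 0.0108). That call was lost without KO_db/db mouse 2 (adjusted p = 0.0609, between 0.00704 and 0.0609 over the 5 fits).

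Among the regulators, Atf6 was at 157 and 145 CPM in KO_db/db, above all lean values, and higher by 0.45 (SE 0.13, adjusted p = 0.0330). Ern1 was at 91.2 and 111 CPM, below all lean values, and lower by 0.41 (SE 0.11, adjusted p = 0.0263). Atf6 kept its call without db/+ mouse 3 alone, with adjusted p up to 0.165 in the other fits, and Ern1 kept its call without KO_db/db mouse 2 or db/+ mouse 3, with adjusted p up to 0.154 in the others. Xbp1, at 238 and 203 CPM, Eif2ak3, at 46.3 and 45.9 CPM, and Wfs1, at 181 and 167 CPM, were not called. The peptidyl-prolyl isomerase Fkbp2 was at 70.6 and 79.5 CPM in KO_db/db and at 105, 97.9 and 127 CPM in db/+, and fell by 0.55 (SE 0.13, adjusted p = 0.0199), a call lost without KO_db/db mouse 1 (adjusted p = 0.116, between 0.0267 and 0.116 over the 5 fits). In the disulfide isomerases 0 of 4 were called by edgeR or at an unadjusted p under 0.05, and DESeq2 called 1 of them, Pdia3, lower.

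**Figure D5:**
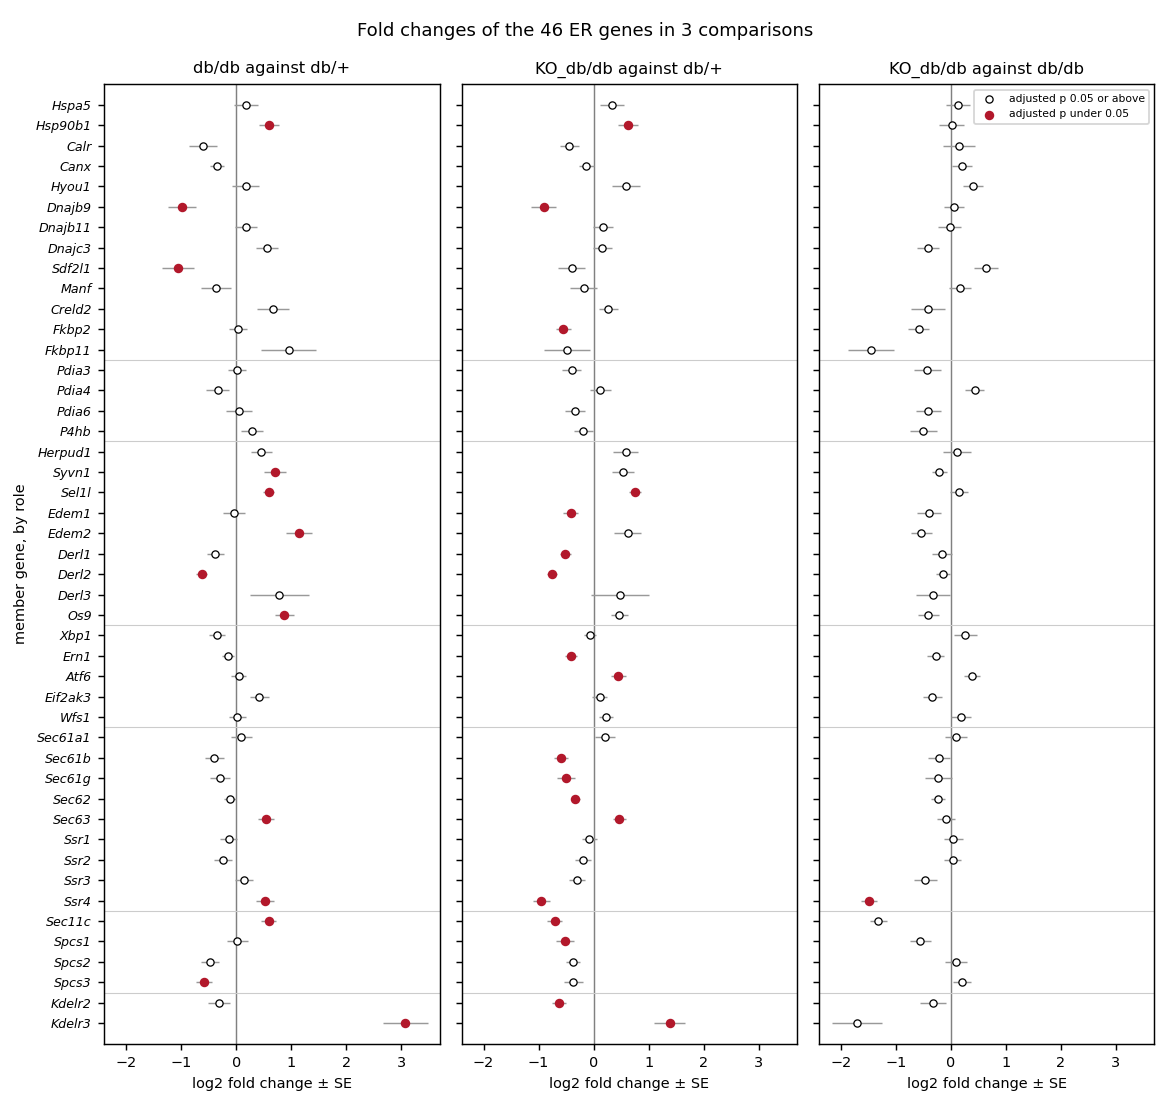
Log2 fold change and SE of each member in the 3 comparisons, from edgeR; filled points have an adjusted p under 0.05. Calls fall on both sides of 0 in the comparisons with db/+ (9 higher and 4 lower in db/db, 5 and 13 in KO_db/db), and Ssr4 is the one filled point in KO_db/db against db/db.

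The third comparison set KO_db/db against db/db, both diabetic, with 2 libraries on each side. The 2 groups also differ in acinar RNA, with 17.3% and 1.95% of the counts in KO_db/db and 0.0559% and 0.0364% in db/db. An effect of the knockout cannot be told apart from that difference. A fit without the 40 acinar genes leaves any other transcripts of those cells in the counts. In the quasi-likelihood test of edgeR with the same adjustment 0 members were higher and 1, Ssr4, was lower. Of all 13486 genes tested, 0.126% were higher and 0.193% were lower. At an unadjusted p under 0.05, 3 members were higher (Sdf2l1, Pdia4 and Atf6) and 7 were lower (Fkbp2, Fkbp11, Edem2, Ssr4, Sec11c, Spcs1 and Kdelr3), against 11% and 9.85% of all genes. DESeq2, which fitted 19621 genes here, called 747 of them higher and 639 lower. Of the members it called 0 higher and 4 lower (Fkbp11, Ssr4, Sec11c and Kdelr3). The median log2 fold change of the members was -0.18, against -0.023 over all genes, and it was 0.030 without db/db mouse 1 and -0.086 without KO_db/db mouse 2. Scaling by library totals moved the median of all genes by -0.25. For a single value, an exact two-sided permutation test of 2 libraries against 2 cannot go below p = 0.333, and 2 against 3 cannot go below p = 0.1.

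Ssr4 was at 151 and 155 CPM in KO_db/db and at 441 and 425 CPM in db/db, far apart compared with the spread within either group. Its log2 fold change was -1.49 (SE 0.15, adjusted p = 0.0465), and the fold change stayed between -1.51 and -1.46 when 1 library was left out. Each of these fits left 1 library in a group, and the call of Ssr4 was lost in most of them. The number of all genes called also changed between these fits. With the mouse number as a block in the edgeR test, Ssr4 was not called either (adjusted p = 0.0993). Sec11c, at 90.4 and 97.2 CPM against 256 and 218 CPM, had a log2 fold change of -1.32 (SE 0.15, adjusted p = 0.0591), just short of the threshold. It passed when the acinar genes were left out of the counts (adjusted p = 0.0476) and when all 7 libraries were fitted together (adjusted p = 0.0101). Library totals, no filter and DESeq2 called it as well. It did not pass with RLE scaling (adjusted p = 0.0591), without the insulin genes (0.0595) or with the mouse number as a block (0.11). Its fold change stayed between -1.44 and -1.21 when 1 library was left out, and most of these fits did not call it.

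Kdelr3 and Fkbp11 were also low in KO_db/db beside db/db, but the db/db libraries disagreed on them. Kdelr3 was at 8.31 and 11.6 CPM against 47.3 and 18.9 CPM, with a log2 fold change of -1.71 (SE 0.46, adjusted p = 0.148) that was -0.91 without db/db mouse 1 and -2.23 without db/db mouse 2. Fkbp11, a peptidyl-prolyl isomerase of secretory cells, was at 20.5 and 17.7 CPM against 74.7 and 31.1 CPM, with -1.46 (SE 0.42, adjusted p = 0.161) that was -0.69 and -1.95 in those fits. In db/+ it was at 15.6, 20.5 and 44.0 CPM, which spans the KO_db/db values. Fkbp2 had a log2 fold change of -0.59 (SE 0.19, adjusted p = 0.179).

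Several members that are described against db/+ above had no call in KO_db/db against db/db. Hspa5 had a log2 fold change of 0.13 (SE 0.22), Hsp90b1 0.01 (0.22), Dnajb9 0.06 (0.18), Sel1l 0.15 (0.16), Derl2 -0.14 (0.13), Sec63 -0.09 (0.17) and Sec61a1 0.10 (0.20). A p above the threshold does not show that these levels were equal. Edem2, at 176 and 134 CPM in KO_db/db, lay between db/db and db/+, with -0.54 against db/db (adjusted p = 0.203) and 0.62 against db/+ (adjusted p = 0.0961), and Os9, at 315 and 352 CPM, did so too, with -0.41 (adjusted p = 0.276) and 0.47 (adjusted p = 0.0598).

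Beyond the 46 members, 71 further genes of the same processes were listed, of which 70 could be tested, the exception being Ern2, which was at or below 0.0814 CPM in every library. In db/db against db/+, 13 were higher (18.6%, against 19.9% of all genes) and 9 were lower (12.9%, against 18%). In KO_db/db against db/+, 8 were higher (11.4%, against 20.5%) and 14 were lower (20%, against 17.9%). In KO_db/db against db/db 0 passed by edgeR, where 5 were higher and 10 lower at an unadjusted p under 0.05, against 11% and 9.85% of all genes. DESeq2 gave 4 and 8 of them, and 747 and 639 of all 19621 genes it fitted. The largest rises and falls among those with a mean of at least 10 CPM in db/db against db/+, chosen after their values were seen, were Prdx4 and Prkcsh, and Ero1b and Atf6b. Prdx4, an ER peroxiredoxin, was at 52.7 and 69.7 CPM in db/db, at 18.1, 18.5 and 19.0 CPM in db/+ and at 26.3 and 24.8 CPM in KO_db/db, and was higher in db/db than in db/+ by 1.70 (SE 0.14, adjusted p = 0.000698). Prkcsh, the regulatory subunit of glucosidase II, was higher by 1.00 (adjusted p = 0.00671).

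Ero1b, the disulfide oxidase of the islet ER, was at 2299, 1892 and 2445 CPM in db/+, at 598 and 718 CPM in db/db and at 1119 and 1247 CPM in KO_db/db. The 3 groups did not overlap, and it fell by 1.78 in db/db (SE 0.19, adjusted p = 0.00114) and by 0.90 in KO_db/db (SE 0.19, adjusted p = 0.0122) compared to db/+. Atf6b, the paralog of Atf6, was at 32.7, 26.8 and 37.7 CPM in db/+, at 13.3 and 10.5 CPM in db/db and at 34.6 and 23.3 CPM in KO_db/db. It fell by 1.48 in db/db (SE 0.19, adjusted p = 0.00222), and KO_db/db overlapped with db/+. Of 6 genes that are known outputs of PERK signalling, Ppp1r15a was higher (16.7%, against 19.9% of all genes) and Ddit3, Atf4 and Asns were lower (50%, against 18%) in db/db than in db/+. In KO_db/db against db/+, Ppp1r15a was higher and Atf4 and Asns were lower (16.7% and 33.3%, against 20.5% and 17.9%).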

How the data were processed

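Poly-A RNA of sorted β-cells from 7 mice was sequenced as paired ends. Per the labels, reads were demultiplexed with bcl2fastq 2.19 and quantified with kallisto 0.44.0 on GRCm38; the annotation release is not given in the sources used here. The authors deposited estimated counts per gene symbol that were not normalized, and these were rounded to whole numbers here before the fits. Reads shared by similar transcripts are divided by kallisto, which makes near-identical genes uncertain. Groups came from the labels, and 0 columns of values were left unused.

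For a comparison the libraries of its groups alone were fitted in R 4.3.3 with edgeR 4.0.16 (filterByExpr with a minimum count of 10, TMM, glmQLFit and glmQLFTest), with Benjamini-Hochberg adjustment over all genes tested and a threshold of 0.05. The study's methods name DESeq2, and DESeq2 1.42.0 was used as an alternative. SE was taken as the absolute log2 fold change over the square root of F. Levels are CPM scaled by TMM over all libraries. The fits were tested on simulated data. No library was a copy of another: replicates differed beyond sampling noise. Coordinates are from GENCODE for GRCm38, and promoter sequences from RefSeq for GRCm38.p6. The members and lists were chosen with earlier results of these data known.

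Values in every library were given for Hspa5, Hsp90b1, Xbp1, Ern1, Atf6, Eif2ak3, Sec61a1 and Wfs1. They were also given for up to 2 members per role with the largest called change in db/db against db/+, no overlap between groups and at least 10 CPM on average, for the 3 largest rises and falls called in KO_db/db against db/+, and for the members called and the 5 with the smallest p in KO_db/db against db/db. Syvn1 and others were added after their values were seen. Other scaling (RLE, library totals), no filter, acinar or insulin genes left out, all libraries in 1 fit, the mouse number as a block, a threshold of 0.01 and leaving out each library were tried.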

Additional observations from a re-analysis of the deposited data

How the results depend on the processing

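Leaving out single libraries moved the number of members higher in db/db than in db/+ (9) between 4 and 12 and the number lower (4) between 1 and 9, in KO_db/db against db/+ the number higher (5) between 2 and 10 and the number lower (13) between 4 and 10, and in KO_db/db against db/db the number lower (1) between 0 and 4. The lone library left in a group was taken to vary like the others. The number of all genes called moved between the settings as well. In the same order, library totals gave 25, 0, 9, 1 and 4, a threshold of 0.01 gave 3, 1, 1, 5 and 0, and DESeq2 gave 7 lower in db/db against db/+, 9 higher in KO_db/db against db/+ and 4 lower in KO_db/db against db/db. Without a filter on low counts 10 were higher in KO_db/db against db/+, and 4 members fell in KO_db/db against db/db, where leaving out the acinar genes and fitting all 7 libraries gave 2 each. Same-numbered mice share only a number, as the correlation of their deviations lay between -0.108 and 0.0815; with the number as a block, 14 members were higher in db/db than in db/+, the KO_db/db group had 10 above and 6 below db/+, and 0 below db/db. With that replicate block Fkbp11 turned to 0.10 in KO_db/db against db/+. Library totals turned the sign of genes that were uncalled in the main fit, with log2 fold changes of 0.14 for Xbp1 and 0.34 for Ern1 in db/db against db/+, 0.13 for Xbp1 and 0.02 for Atf6b in KO_db/db against db/+, and -0.13 for Hspa5, -0.24 for Hsp90b1, -0.01 for Xbp1, -0.17 for Sec61a1, -0.09 for Wfs1, -0.19 for Dnajb9, -0.04 for Spcs3 and -0.12 for Sel1l in KO_db/db against db/db. This follows from the shift of all genes given above. On that scale Ern1 was called higher in db/db against db/+, as were Atf6, Eif2ak3 and Wfs1, whose signs did not turn. Signs also turned when 1 library was left out: in db/db against db/+ Atf6 ran from -0.03 to 0.16, Sec61a1 from -0.10 to 0.25, Wfs1 from -0.18 to 0.18 and Fkbp2 from -0.21 to 0.23; in KO_db/db against db/+ Xbp1 ran from -0.20 to 0.03, Fkbp11 from -0.75 to 0.09 and Atf6b from -0.48 to 0.09; in KO_db/db against db/db Hspa5 ran from -0.03 to 0.30, Hsp90b1 from -0.16 to 0.19, Sec61a1 from -0.06 to 0.29, Dnajb9 from -0.10 to 0.23 and Sec63 from -0.26 to 0.10. Over the 25 named genes, 276 of 325 values in db/db against db/+, 271 of 325 in KO_db/db against db/+ and 255 of 300 in KO_db/db against db/db kept their direction and side of the threshold. Apart from the library totals the cause was not tested. With 2 or 3 mice a group, small differences could not be resolved.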

Other observations

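Ratios between members within a library do not depend on the scaling between libraries. They were chosen after the values were seen, are given as values with no test, and carry no explanation. The ratio of Ssr4 to Ssr1, both subunits of the TRAP complex, was 0.668 and 0.754 in KO_db/db, 1.88 and 2.25 in db/db and between 1.25 and 1.36 in db/+, so it separated the 3 groups. Ssr4 against Ssr2 gave the same order, with 1.05 and 1.16, 2.97 and 3.40, and 1.81 to 1.94. The ratio of the signal peptidase paralogs Sec11c and Sec11a was 4.86 and 4.62 in db/db, 3.05 and 2.84 in KO_db/db and 2.88 to 3.90 in db/+, where the last 2 groups overlapped. The ratio of the retrieval receptor genes Kdelr3 and Kdelr2 was 0.328 and 0.209 in db/db, 0.0966 and 0.118 in KO_db/db and 0.0223 to 0.0343 in db/+, again without overlap. Hsp90b1 against Hspa5 was 0.860 to 0.973 in the 4 diabetic libraries and 0.687 to 0.808 in db/+, although Hspa5 alone overlapped between the groups. Other ratios did not separate the groups. Sel1l against Syvn1 was 2.76 in both KO_db/db libraries, 2.2 and 2.11 in db/db and 2.09 to 3.09 in db/+. Derl2 against Derl1 was 0.518 and 0.549 in KO_db/db, 0.452 and 0.626 in db/db and 0.607 to 0.659 in db/+.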
